A study of Mus musculus with 16 samples.

Results

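Molecular chaperones of the cytosol and mitochondria were read in 2 mouse lung tumour cell lines, from a list of 41 genes chosen by symbol among the 20622 genes of the total RNA tables. The list holds 7 HSP70 proteins, 3 HSP110 proteins, 3 HSP90 proteins, 2 small heat shock proteins, the mitochondrial HSP60 and its HSP10 lid, all 8 subunits of the cytosolic chaperonin TRiC, 4 prefoldin subunits, 6 J-domain proteins (HSP40), 5 co-chaperones and the heat shock transcription factor *Hsf1*. KM cells were grown from lung tumours of a single male mouse with engineered alleles that include *Rosa26* LSL-MYC/LSL-MYC, and both cell lines share this genotype. KMNTC is the line with the non-targeting control, and KM4A2cr was made with lentiviral Cas9 and guides against *Eif4a2*, which encodes an mRNA helicase, and is a pool of 4 clones without detectable eIF4A2 protein. Ribosome-protected fragments (RPFs), the stretches of mRNA that a ribosome shields from RNase, and cytoplasmic total RNA were sequenced from the same untreated lysates in 4 independent experiments on different days. This gave 16 libraries, 4 for each line and kind. The comparison asks which genes yield more or fewer RPFs, and more or less mRNA, in cells without detectable eIF4A2 protein. RPFs relative to mRNA are compared between the lines only as translational efficiency.

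Chaperones hold unfolded or newly made proteins until they reach their shape. HSP70 binds short exposed stretches of a client, J-domain proteins bring clients to it and start its ATP cycle, HSP110 and BAG proteins release its nucleotide, and HSP90 takes over selected clients such as kinases. TRiC encloses actin and tubulin, which prefoldin delivers, and HSP60 with HSP10 does the like for proteins imported into mitochondria. Under proteotoxic stress, free HSF1 binds heat shock elements, inverted repeats of nGAAn, and switches on the inducible chaperones, of which HSP70 from *Hspa1a* and *Hspa1b* is the best known.

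Depth ran from 5703271 to 9621848 counts in the KMNTC RPF libraries, from 4512403 to 8515151 in the KM4A2cr RPF libraries and from 5350920 to 9312624 in total RNA. The epithelial markers *Epcam*, *Cdh1*, *Krt8*, *Krt18* and *Krt19* summed to between 3911 and 5714 TPM, the deposited length-scaled transcript level, the 5 alveolar type II markers summed to between 29.3 and 49.0 TPM, nearly all from *Abca3*, with *Sftpc* and *Sftpb* at 0 in all 8 total RNA libraries, and the summed fibroblast and endothelial markers did not exceed 3.03 TPM. The paper assessed the identity of KM cells in part by expression of surfactant protein C, which *Sftpc* encodes. That assessment is not part of these libraries. Replicate 4 of both lines stood apart. Leukocyte markers, nearly all from *Cd68*, summed to between 33.2 and 62.9 TPM in replicates 1 to 3 and to 220 and 154 TPM in replicate 4 of KMNTC and KM4A2cr, with *Adgre1* and *Cd3e* at 0 throughout. The remaining leukocyte marker, *Ptprc*, did not exceed 0.67 TPM and was at 0 and 0.16 TPM in replicate 4 of KMNTC and KM4A2cr. The targeted *Eif4a2* itself was read at 97.7, 122, 99.8 and 389 CPM (counts scaled to the TMM-normalised library size) of RPFs in KMNTC and at 51.0, 88.4, 74.8 and 346 in KM4A2cr, lower in 4 of 4 pairs (log2 fold change -0.49, adjusted p = 0.0941), and its total RNA differed by -0.18 (adjusted p = 0.504). RPFs and RNA of the gene thus remained in the edited pool, and replicate 4 was high in both lines. Values without replicate 4 are given beside the results below for this reason.

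The chaperones made up between 1.33% and 2.32% of RPF counts and between 0.913% and 1.54% of total RNA counts. *Hspa8*, the constitutive HSP70, was the most abundant transcript of the list at 3208 ± 751 TPM in KMNTC and 2629 ± 677 in KM4A2cr (SD, n = 4). *Hsp90ab1*, the constitutive HSP90, followed at 1359 ± 298 and 1221 ± 226 TPM and *Hsp90aa1*, its inducible counterpart, was at 709 ± 201 TPM in KMNTC. Transcripts of the 8 TRiC subunits, which are present once in each ring, lay within 2.45-fold to 3.05-fold of each other in replicates 1 to 3 and within 4.36-fold and 6.75-fold in replicate 4 of KMNTC and KM4A2cr, with *Cct3* or *Cct4* lowest and *Cct2* or *Tcp1* highest. At the other end stood the stress-inducible genes: *Hspa1b* at 15.6 ± 8.03, *Hspa1a* at 8.44 ± 6.33, *Bag3* at 4.31 ± 0.759 and *Hspb1* at 2.79 ± 1.25 TPM in KMNTC. *Hspb8*, a small heat shock protein of muscle, and *Hspa12a*, a distant HSP70, had at most 0.17 and 0.22 TPM in any library and were not tested.

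**Figure D1:**
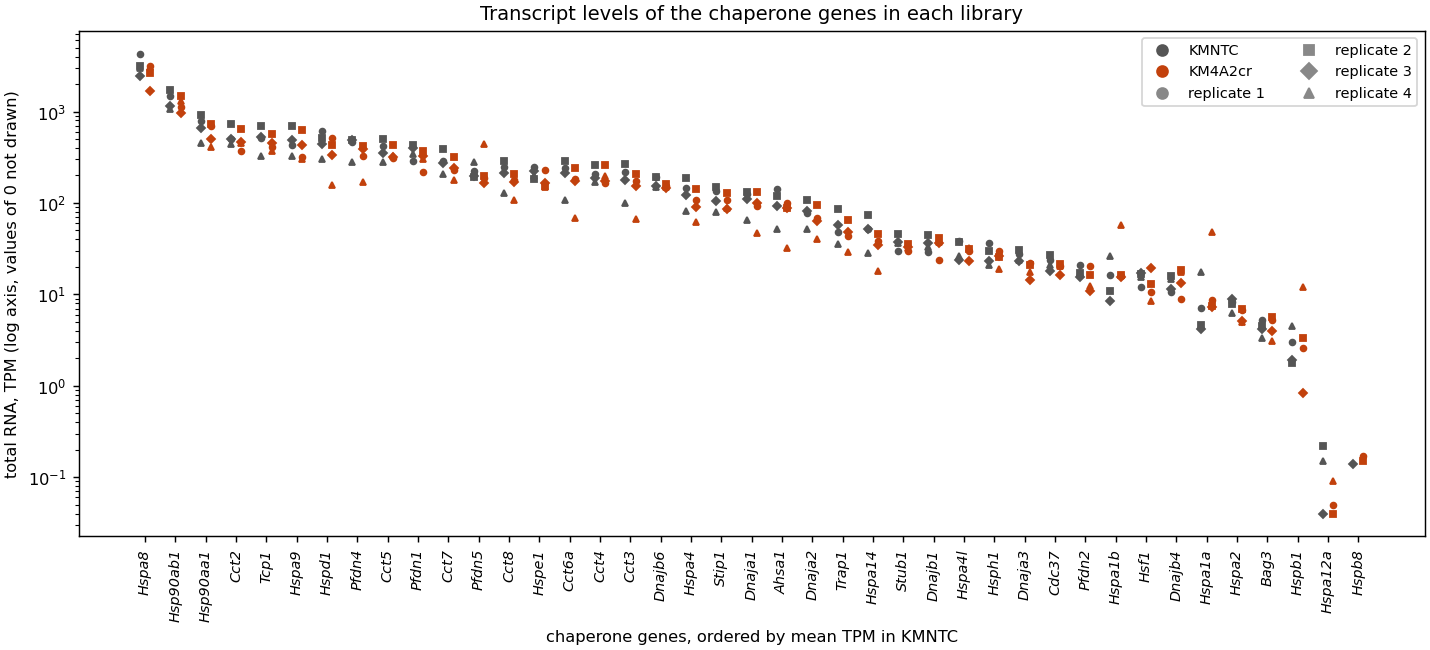
Deposited TPM of the 41 chaperone genes in each of the 8 total RNA libraries, on a log axis, with genes ordered by their mean in KMNTC (grey) and KM4A2cr beside it (orange); marker shape gives the replicate and values of 0 are not drawn. Levels run from 3208 TPM for *Hspa8* to below 1 TPM for *Hspa12a* and *Hspb8*, and the triangles of replicate 4 leave the other markers at *Hspa1a*, *Hspa1b* and *Hspb1*.

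Of the inducible HSP70 genes, *Hspa1a* was called higher in KM4A2cr in both kinds of library and *Hspa1b* in total RNA only. *Hspa14* was called lower in RPFs only, and no other chaperone was called. In both kinds of library the share of chaperones called was below that of all genes. In RPFs, 2 of 39 chaperones tested were called at an adjusted p below 0.1, 1 in each direction, where 10.3% of all 10291 genes tested were called (6.60% higher and 3.72% lower). In total RNA, 2 of 38 were called, both higher, against 6.13% of 10880 genes (4.35% higher and 1.78% lower). Only *Hspa1a* passed in both kinds of library. Its RPF call was lost with upper-quartile scaling. Scaling by library size alone moved the calls to 0 higher and 5 lower in RPFs and to 1 higher and 4 lower in total RNA, where 15.7% and 10.4% of all genes were called. Under this scaling all genes tested had a median of -0.14 in RPFs (-0.01 with TMM) and -0.15 in total RNA (0.01 with TMM).

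*Hspa1a* (ENSMUSG00000091971.4) and *Hspa1b* (ENSMUSG00000090877.4) encode the same inducible HSP70 and lie side by side on chromosome 17. They are shown here with the 250 bases before each start site, from RefSeq on GRCm38.p6, because both genes were higher and their promoters are close copies. These lie at chr17:34972157-34972406 and chr17:34959239-34959488, on the minus strand, are identical at 247 of 250 positions, and differ at the 3 bases in capitals.
Hspa1a: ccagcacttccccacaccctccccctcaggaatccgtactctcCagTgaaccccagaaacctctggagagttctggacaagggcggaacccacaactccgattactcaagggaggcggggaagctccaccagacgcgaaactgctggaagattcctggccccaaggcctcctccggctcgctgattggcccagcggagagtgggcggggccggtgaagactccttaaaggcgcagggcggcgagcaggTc
Hspa1b: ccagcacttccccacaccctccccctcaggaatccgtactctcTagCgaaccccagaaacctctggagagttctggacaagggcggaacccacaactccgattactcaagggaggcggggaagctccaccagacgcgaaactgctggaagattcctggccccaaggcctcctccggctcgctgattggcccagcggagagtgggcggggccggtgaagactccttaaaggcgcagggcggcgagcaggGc
Each holds 1 match to the core of a heat shock element, GAANNTTC, which starts 104 bases before the start site.

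RPFs of *Hspa1a* were 54.5, 26.0, 29.6 and 75.7 CPM in KMNTC replicates 1 to 4 and 49.3, 45.6, 56.1 and 165 CPM in KM4A2cr, or 46.5 ± 23.3 and 79.0 ± 57.4 (SD, n = 4). KM4A2cr was higher in 3 of 4 pairs, replicate 1 was the exception, and the groups overlapped. The log2 fold change was 0.68 (95% interval 0.22 to 1.13), with an adjusted p of 0.0941 from the quasi-likelihood test of edgeR. In total RNA it had 11.4, 6.21, 6.76 and 34.5 CPM in KMNTC and 14.6, 10.8, 12.5 and 127 CPM in KM4A2cr. Here KM4A2cr was higher in 4 of 4 pairs, the groups again overlapped, and the log2 fold change was 1.06 (95% interval 0.55 to 1.56, edgeR adjusted p = 0.0384). Replicate 4 had 2.06 times the mean RPF level of the other 3 replicates in KMNTC and 3.27 times in KM4A2cr, and 4.25 and 10.1 times in total RNA, so replicate 4 departed from the others by more than the lines differed on average. Without replicate 4 the log2 fold change was 0.51 in RPFs (adjusted p = 0.0548 by edgeR) and 0.65 in total RNA (adjusted p = 0.00748).

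Total RNA of *Hspa1b* was 24.5, 13.9, 12.8 and 48.7 CPM in KMNTC and 24.9, 22.3, 25.6 and 142 CPM in KM4A2cr. It was higher in 4 of 4 pairs, though by little in replicate 1, with overlapping groups (log2 fold change 0.83 with a standard error of 0.21, edgeR adjusted p = 0.0704, and 0.53 with adjusted p = 0.0169 without replicate 4). Its RPFs were few, at 4.80, 0.993, 2.74 and 2.73 CPM in KMNTC and 3.38, 3.44, 2.81 and 7.81 CPM in KM4A2cr. Here 3 of 4 pairs were higher and the gene was not called (log2 fold change 0.55, 95% interval -0.31 to 1.42, adjusted p = 0.423 by edgeR).

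The 2 genes share nearly all of their coding sequence, so fragments can be assigned to either. *Hspa1a* took 93.8% of the pair's RPF counts in KMNTC and 94.5% in KM4A2cr, but 35.9% and 42.4% of its total RNA counts, where sequence outside the coding region is read as well. Values for 1 gene of the pair are therefore uncertain, and the sum is the firmer measure. Summed, the pair had RPF levels of 59.3, 27.0, 32.3 and 78.5 CPM in KMNTC and 52.7, 49.1, 58.9 and 173 CPM in KM4A2cr (log2 fold change 0.67, adjusted p = 0.0974 by edgeR). In total RNA the sum was 35.9, 20.1, 19.6 and 83.2 CPM in KMNTC and 39.4, 33.1, 38.1 and 269 CPM in KM4A2cr (log2 fold change 0.89, adjusted p = 0.0550 by edgeR). The pair was thus higher in 3 of 4 pairs of RPF libraries and in all 4 of total RNA, with replicate 1 closest to no difference.

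**Figure D2:**
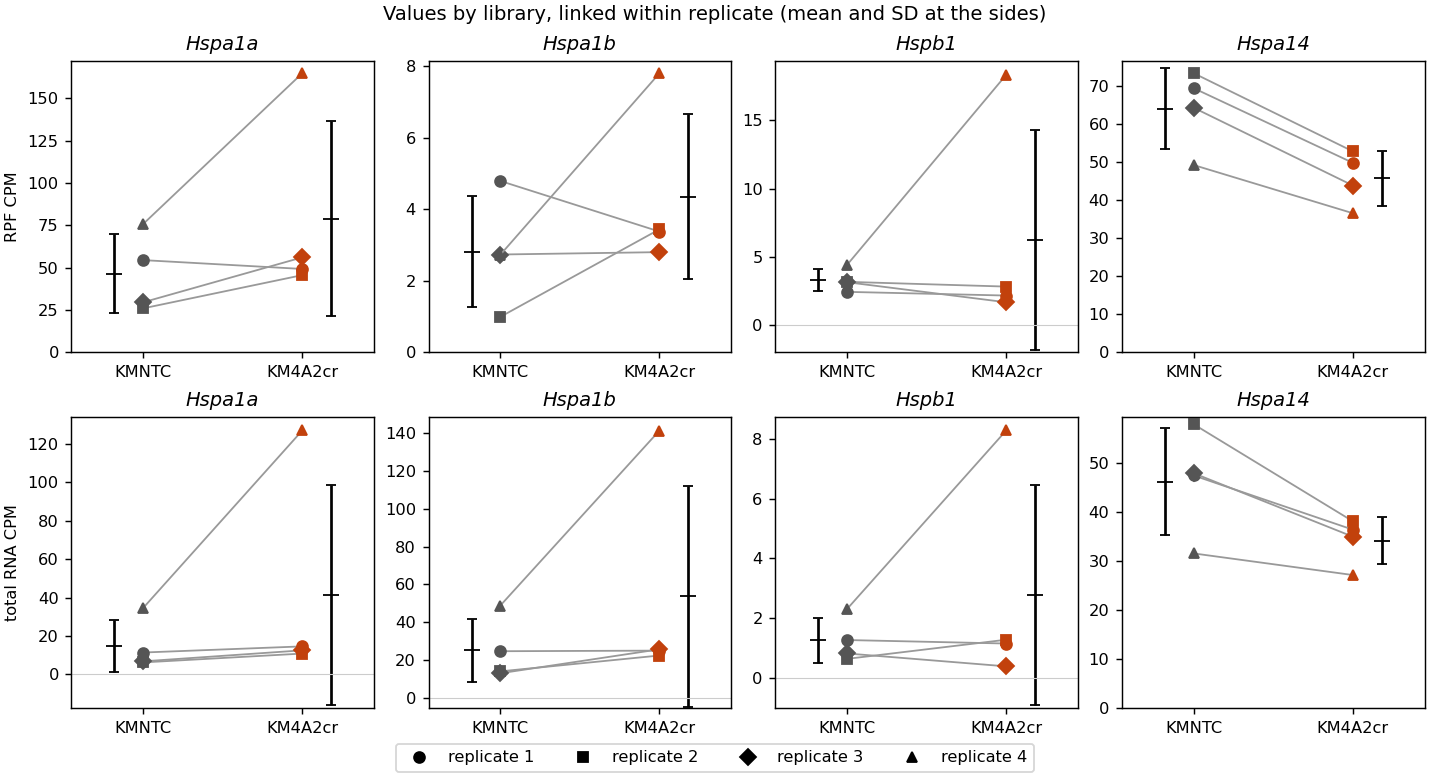
Normalised CPM of *Hspa1a*, *Hspa1b*, *Hspb1* and *Hspa14* in every library, RPFs above and total RNA below; lines join the KMNTC (grey) and KM4A2cr (orange) libraries of 1 replicate, marker shape gives the replicate, and the bars at the sides are mean and SD of 4. Replicate 4 of KM4A2cr is the highest point for *Hspa1a*, *Hspa1b* and *Hspb1* in both rows, whereas all 8 lines of *Hspa14* slope down.

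*Hspa14* (ENSMUSG00000109865.2), an atypical HSP70 that sits on ribosomes together with the J-domain protein DNAJC2, was the only chaperone called lower. Its RPFs were 69.5, 73.5, 64.4 and 49.3 CPM in KMNTC and 49.9, 52.9, 43.9 and 36.6 CPM in KM4A2cr. Each KM4A2cr library was below the KMNTC library of the same replicate number, while the groups overlapped through KMNTC replicate 4 (log2 fold change -0.48, 95% interval -0.75 to -0.22, edgeR adjusted p = 0.0541, and -0.50 with adjusted p = 0.00432 without replicate 4). Total RNA was 47.5, 58.0, 48.0 and 31.6 CPM against 36.5, 38.2, 35.0 and 27.2 CPM, again lower in 4 of 4 pairs. Its log2 fold change of -0.42 (95% interval -0.70 to -0.14) did not pass at an adjusted p of 0.106 by edgeR and did without replicate 4, at -0.49 and an adjusted p of 0.00226. *Hspa14* lies on chromosome 2, where the median log2 fold change of the 833 genes tested in RPFs was -0.21, against 0.00 for the rest of the genome, and 10.2% were called lower. The part of the chromosome in this difference was not tested.

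The other HSP70 and HSP110 genes did not pass. RPFs of *Hspa8* were 3321, 2936, 2739 and 3872 CPM in KMNTC and 3136, 2992, 2507 and 3763 CPM in KM4A2cr. The lines overlapped almost fully (log2 fold change -0.06, 95% interval -0.33 to 0.22, adjusted p = 0.815 by edgeR). Its total RNA was 4879, 3036, 2853 and 4275 CPM against 3789, 2765, 2100.3 and 5807 CPM, lower in pairs 1 to 3 and higher in pair 4. Its log2 fold change of -0.13 (edgeR adjusted p = 0.817) became -0.32 when replicate 4 was left out (adjusted p = 0.0181). *Hspa2*, best known from spermatocytes, was at 10.9 to 11.0 CPM of RPFs on average in both lines (log2 fold change -0.01). The HSP110 nucleotide exchange factors *Hspa4*, *Hspa4l* and *Hsph1* had RPF log2 fold changes of -0.18, 0.10 and -0.04, and adjusted p-values of at least 0.421.

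Neither cytosolic HSP90 gene was called. RPFs of *Hsp90aa1* were 3232, 3332, 2619.7 and 2239.8 CPM in KMNTC and 2672, 2835, 2125 and 2797 CPM in KM4A2cr, lower in pairs 1 to 3 and higher in pair 4 (log2 fold change -0.12, 95% interval -0.45 to 0.21, adjusted p = 0.653 by edgeR). Without replicate 4 the value was -0.27 with an adjusted p of 0.0901. RPFs of *Hsp90ab1* were 2276, 2446, 1906 and 2219 CPM in KMNTC and 2118, 2521, 1966 and 2569 CPM in KM4A2cr, higher in 3 of 4 pairs (log2 fold change 0.05, 95% interval -0.23 to 0.33, adjusted p = 0.844 by edgeR). Among HSP90 co-chaperones, *Stip1*, which links HSP70 to HSP90, *Cdc37*, which recruits kinases, and *Ahsa1*, which speeds the ATPase, had log2 fold changes of -0.10, -0.05 and -0.19 in RPFs, none called.

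All 5 mitochondrial chaperones had log2 fold changes below 0 in both kinds of library, and none was called. Their median was -0.22 in RPFs and -0.13 in total RNA, where the median of all genes tested was -0.01 and 0.01. Mitochondrial co-chaperones and proteases from a list of partner genes, described below, had medians of 0.02 and 0.05. Of these genes, 6 of 11 were above 0 in RPFs and 8 of 12 in total RNA. *Trap1*, the mitochondrial HSP90, had RPF levels of 94.6, 155, 126 and 91.3 CPM in KMNTC and 82.4, 126, 93.9 and 67.0 CPM in KM4A2cr. It was lower in 4 of 4 pairs with overlapping groups (log2 fold change -0.34, 95% interval -0.61 to -0.07, adjusted p = 0.135 by edgeR, and -0.31 with adjusted p = 0.0381 without replicate 4), while its total RNA differed by -0.12. *Hspd1*, the HSP60 subunit, had RPF levels of 964, 793, 749 and 788 CPM against 1001, 729.9, 630.3 and 448 CPM, highest and lowest within KM4A2cr (log2 fold change -0.28, adjusted p = 0.325 by edgeR, and -0.10 without replicate 4). Total RNA of *Hspd1* was lower in 4 of 4 pairs, at 790.0, 549, 571 and 478 CPM against 688, 499, 469 and 332 CPM (log2 fold change -0.29, adjusted p = 0.339). *Hspe1*, the HSP10 lid encoded next to it, was at 18.6, 21.3, 22.1 and 32.9 CPM of RPFs in KMNTC and 15.9, 20.8, 17.7 and 36.9 CPM in KM4A2cr, lower in 3 of 4 pairs (log2 fold change -0.10, adjusted p = 0.695). RPFs of *Hspa9*, the mitochondrial HSP70 that pulls in imported proteins, were 862, 1238, 984 and 1059 CPM against 719.5, 1142, 932 and 1162 CPM, with a log2 fold change of -0.08 (95% interval -0.36 to 0.20, adjusted p = 0.736 by edgeR). *Dnaja3*, its J-domain partner, differed by -0.22 in RPFs and -0.32 in total RNA (adjusted p = 0.421 and 0.252).

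No TRiC subunit was called. Of the 8 subunits, 6 were below 0 in RPFs, with a median of -0.14 and a range from -0.24 for *Cct3* to 0.13 for *Cct4*, and the lowest adjusted p was 0.253. All 8 had an absolute log2 fold change under 0.25, as did 55.9% of all genes tested. *Cct3* had 433, 482, 368 and 208 CPM of RPFs in KMNTC and 366, 388, 331 and 175 CPM in KM4A2cr, lower in 4 of 4 pairs. *Cct4* had 348, 493, 334 and 534 CPM against 338, 531, 378 and 651 CPM, higher in 3 of 4. In *Cct3* replicate 4 was at 0.487 and 0.484 of the mean of the other replicates in the 2 lines, and in *Cct4* it was at 1.36 and 1.57, so replicate 4 set these subunits of 1 complex apart by more than the lines differed. In total RNA the TRiC median was -0.04, and 6 of 8 subunits lay below the median of all genes, a count that was also 6 under the 3 other scalings. Without replicate 4 the 8 of 8 below 0 in total RNA had a median of -0.19.

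Of the prefoldin subunits, *Pfdn4* had RPF levels of 102, 116, 114 and 114 CPM in KMNTC and 81.6, 90.2, 96.1 and 90.5 CPM in KM4A2cr. These levels did not overlap between the lines, while those of its total RNA did. The share of all genes without overlap was not counted, so the lack of overlap is not read as a result. The log2 fold change of *Pfdn4*, -0.31 (95% interval -0.58 to -0.05), did not pass at an adjusted p of 0.150 by edgeR, and the gene too lies on chromosome 2. *Pfdn1*, *Pfdn2* and *Pfdn5* differed by 0.14, -0.05 and 0.08. Total RNA of *Pfdn5* was high in replicate 4, at 1.78 times the mean of the other replicates in KMNTC and 3.62 times in KM4A2cr.

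None of the remaining stress-inducible genes was called. *Dnajb1*, the main inducible J-domain partner of HSP70, had RPF levels of 25.6, 33.1, 36.6 and 47.2 CPM in KMNTC and 21.7, 40.8, 47.6 and 69.5 CPM in KM4A2cr. It was higher in 3 of 4 pairs, as *Hspa1a* was, with overlapping groups and no call (log2 fold change 0.25, 95% interval -0.09 to 0.60, adjusted p = 0.356 by edgeR). *Hspb1* (HSP27), a small heat shock protein that holds unfolded clients, had 2.44, 3.18, 3.15 and 4.41 CPM against 2.17, 2.83, 1.68 and 18.3 CPM. Only pair 4 was higher, and the log2 fold change went from 0.36 (adjusted p = 0.649 by edgeR) to -0.37 (adjusted p = 0.367) without that replicate. *Bag3*, which couples HSP70 to small heat shock proteins and autophagy, was even across RPF libraries, at 40.1, 42.1, 36.2 and 38.0 CPM of RPFs in KMNTC and 35.3, 40.1, 39.1 and 37.4 CPM in KM4A2cr (log2 fold change -0.04, adjusted p = 0.868). Its total RNA was 7.01, 5.13, 5.81 and 5.56 CPM against 7.36, 6.87, 5.87 and 6.91 CPM, higher in 4 of 4 pairs with overlapping groups (log2 fold change 0.21, edgeR adjusted p = 0.596). RPFs of *Hsf1* were 27.9, 23.3, 27.3 and 28.3 CPM against 23.4, 23.4, 34.0 and 30.2 CPM (log2 fold change 0.04, 95% interval -0.28 to 0.35, adjusted p = 0.898 by edgeR). HSF1 acts through its phosphorylation and release from chaperones, which these libraries do not measure. The other J-domain proteins *Dnaja1*, *Dnaja2*, *Dnajb4* and *Dnajb6* lay between -0.14 and 0.29 in RPFs, and *Stub1* (CHIP), the ubiquitin ligase of HSP70 clients, was at 0.15, none called.

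**Figure D3:**
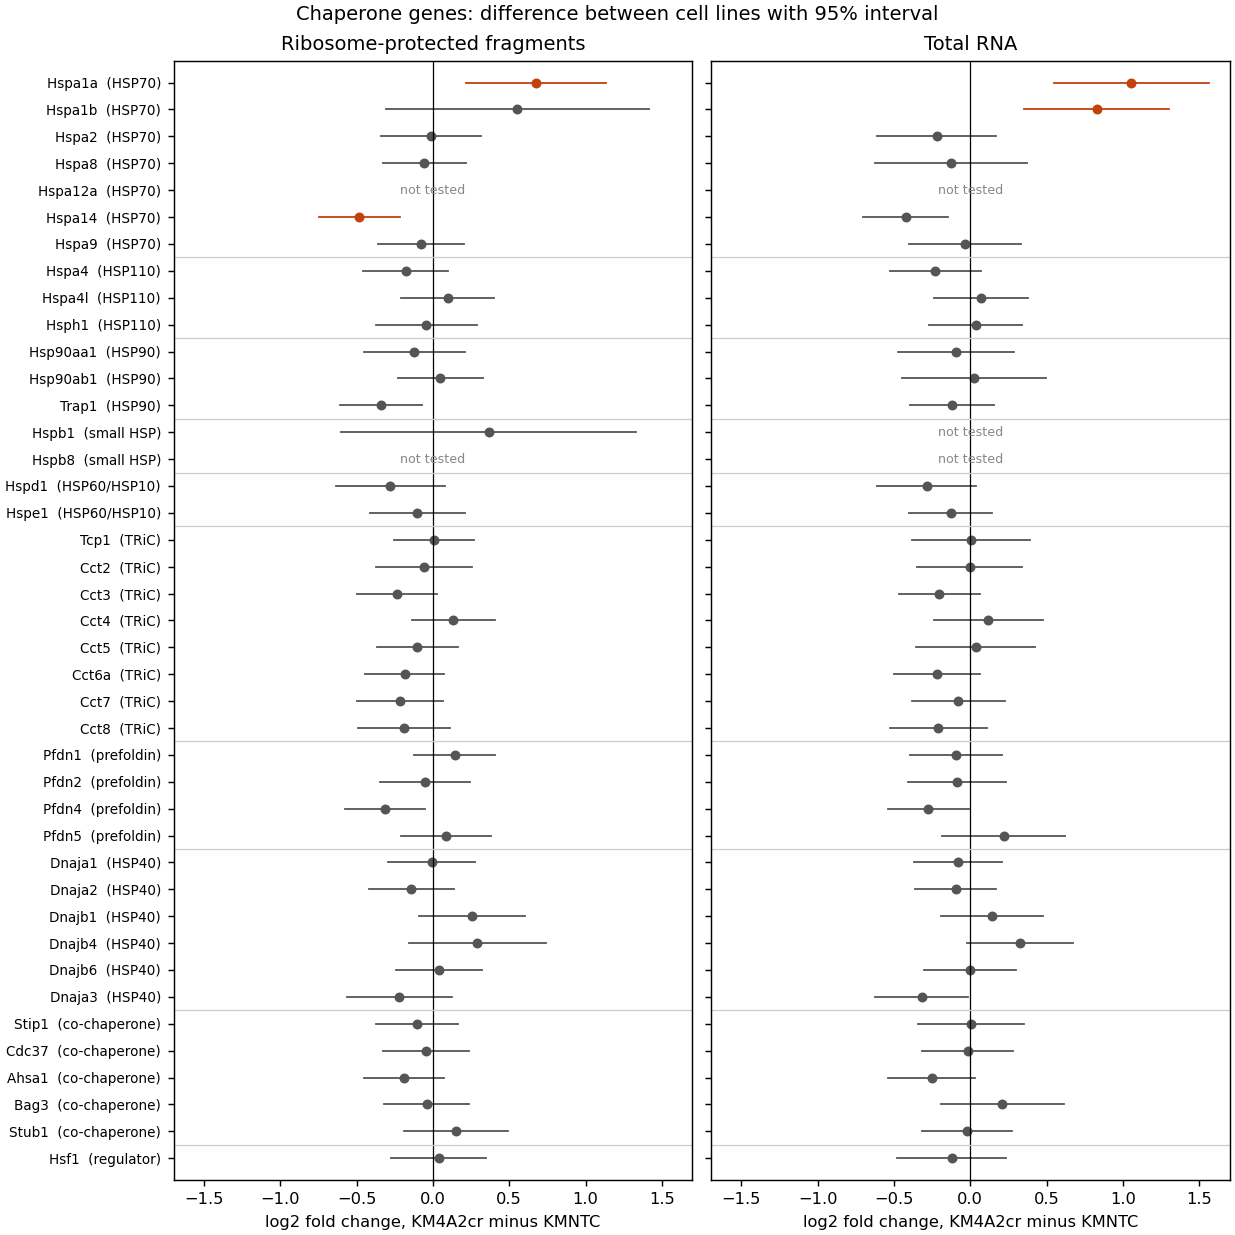
Log2 fold change of each chaperone gene between KM4A2cr and KMNTC in RPFs (left) and total RNA (right) with its 95% interval from edgeR, grouped by family; orange marks an adjusted p below 0.1. The called genes are *Hspa1a* and *Hspa14* in RPFs and *Hspa1a* and *Hspa1b* in total RNA, and most of the other points lie within 0.25 of 0.

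Taken over the list, 25 of 39 chaperones were below 0 in RPFs and 25 of 38 in total RNA, where 51.1% and 48.4% of all genes tested were. Their medians were -0.05 and -0.08, against -0.01 and 0.01 for all genes. The absolute log2 fold change had a median of 0.13 in RPFs against 0.22 for all genes, and 76.9% of chaperones against 55.9% of all genes stayed under 0.25. The median standard error was 0.13 for the chaperones and 0.16 for all genes.

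The direction of the chaperones differed between pairs. In pairs 1, 2, 3 and 4 of RPF libraries, 4, 11, 18 and 26 of the 39 chaperones were higher in KM4A2cr, and their median log2 ratios were -0.21, -0.12, -0.05 and 0.09. The matching counts in total RNA were 5, 8, 10 and 29 of 38, with medians of -0.25, -0.12, -0.10 and 0.26. The medians of all genes stayed between -0.05 and 0.02 in these 8 pairs. Pair 4 was thus the only one in which most chaperones were higher in KM4A2cr. Those not higher in pair 4 of RPFs included *Hspd1*, *Trap1*, *Hspa14* and *Pfdn4*. Between replicate numbers, 24 of 39 chaperones differed in RPFs and 21 of 38 in total RNA (adjusted p below 0.1, edgeR F-test), where 65.9% and 61.1% of all genes did. Replicate 4 of both lines was over 1.5 times the mean of the other replicates in RPFs of *Hspa1a*, *Hspb1*, *Hspe1*, *Pfdn5* and *Dnajb4* and under it by as much in *Cct3*, *Cct6a* and *Ahsa1*.

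Calls fell over all genes when replicate 1, 2 or 3 was left out. In RPFs 1, 0 and 0 chaperones were then called, against 2.27%, 1.20% and 0.310% of all genes, and in total RNA 2, 0 and 0, against 1.91%, 1.30% and 0.577%. Without replicate 4, 9 of 39 chaperones were called in RPFs, against 33.4% of all genes (19.1% higher and 14.3% lower). *Hspa1a* was higher, and *Hspa14*, *Dnaja3*, *Pfdn4*, *Trap1*, *Cct8*, *Cct7*, *Hsp90aa1* and *Cct3* were lower, with log2 fold changes from -0.50 to -0.23. In total RNA 13 of 38 were called, against 29.8% of all genes (17.8% higher and 12.0% lower), with *Hspa1a* and *Hspa1b* higher and 11 lower. These 11 were *Hspa14*, *Dnaja3*, *Pfdn4*, *Cct8*, *Hsp90aa1* and *Cct3* again, with *Hspa4*, *Hspa8*, *Cct6a*, *Ahsa1* and *Hspd1*. Without the replicate block, over all 4 replicates, 0 chaperones and 0 of all genes were called in either kind of library.

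**Figure D4:**
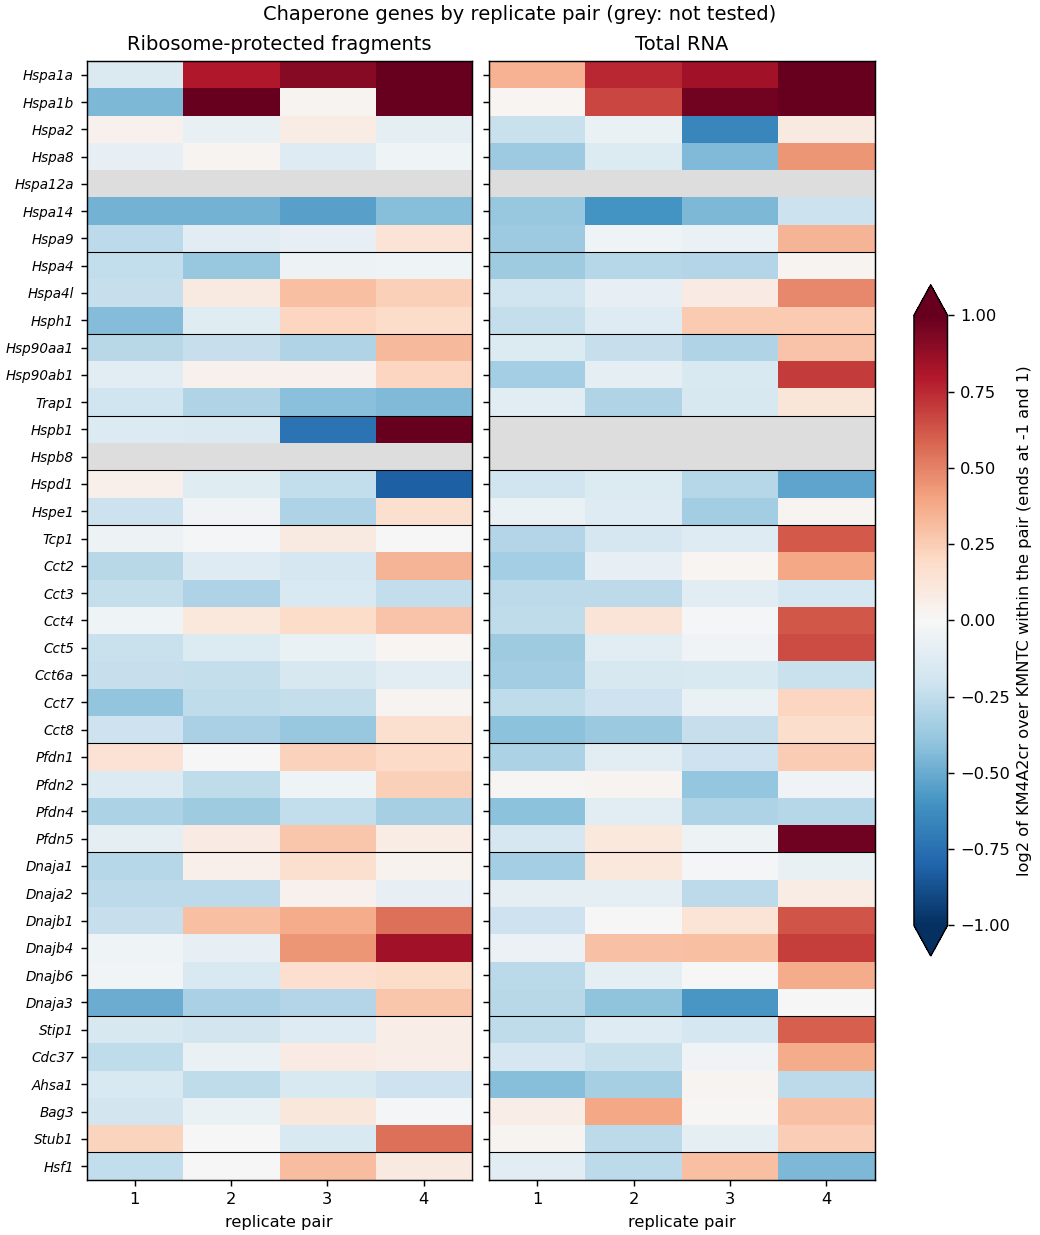
Log2 ratio of KM4A2cr over KMNTC within each replicate pair for every chaperone gene, RPFs left and total RNA right, red for higher and blue for lower in KM4A2cr, with colours ending at -1 and 1 and grey for genes not tested. Pairs 1 and 2 are mostly blue, as is pair 3 of total RNA, while pair 3 of RPFs is near even, with 18 of 39 higher. *Hspa1a* and *Hspa1b* are below 0 in pair 1 of RPFs and above 0 in every other column. Pair 4 of total RNA is mostly red, and *Hspa14*, *Pfdn4*, *Cct3* and *Cct6a* are blue in every column.

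Translational efficiency, the RPF difference beyond that of total RNA, was called for 0 of 38 chaperones by edgeR, against 2.91% of the 9989 genes tested (1.87% higher and 1.04% lower), with 2 at an unadjusted p below 0.05 (14.1% of all genes) and 0 by DESeq2. The lowest value was that of *Hspa1a* (log2 difference -0.39, 95% interval -0.71 to -0.08, adjusted p = 0.202 by edgeR). That value became -0.23 (adjusted p = 0.391) when *Hspa1a* and *Hspa1b* were summed and -0.17 (adjusted p = 0.675) without replicate 4. The highest was *Pfdn1*, at 0.23 (95% interval 0.02 to 0.44, adjusted p = 0.283 by edgeR), and the median over the chaperones was 0.01 against -0.02 for all genes. Without replicate 4, *Pfdn1* and *Hspa8* were called higher, at 0.34 and 0.26 (adjusted p = 0.0348 and 0.0500 by edgeR). These were 2 of 38 chaperones, where 6.68% of all genes were called.

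Matches to heat shock elements were sought in the RefSeq promoters, 250 bases before to 50 after the start site on GRCm38.p6, of which 34 of the 41 genes had an entry; *Cct4*, *Hsf1*, *Hsp90aa1*, *Hsp90ab1*, *Hspa8*, *Hspa9* and *Pfdn1* had none. The core GAANNTTC, which is its own reverse complement, was found in 12 of the 34, or 35.3%, and in 9.04% of all 27025 genes with a promoter (7.86% of 32851 promoters). The longer GAANNTTCNNGAA, searched on both strands and always containing the core, was found in 4, *Hspd1*, *Hspe1*, *Hsph1* and *Dnajb6*, and in 0.662% of all genes with a promoter (0.603% of promoters). *Hspd1* and *Hspe1* share 1 element, since they are read in opposite directions from a common promoter. This element holds overlapping matches to the longer motif, in the windows chr1:55088051-55088079 and chr1:55088056-55088084. Only the match of the former window is in capitals below, on the strand of each gene. Beside it are the matches of *Hsph1* at chr5:149636280-149636308, *Dnajb6* at chr5:29735844-29735872 and the core of *Hspa1a* at chr17:34972245-34972268, also in capitals.
Hspd1: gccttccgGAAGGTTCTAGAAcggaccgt
Hspe1: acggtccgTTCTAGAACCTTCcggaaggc
Hsph1: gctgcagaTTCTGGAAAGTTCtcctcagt
Dnajb6: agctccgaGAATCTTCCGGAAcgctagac
Hspa1a: aactgctgGAAGATTCctggcccc
The search took exact letters only, so elements with an imperfect repeat were not counted. *Hspa1a* and *Hspa1b* matched the core and not the longer motif in this search. With all replicates and TMM scaling, none of the 4 genes with the longer match was called. *Hspd1* was called lower in total RNA without replicate 4, and in RPFs with scaling by library size alone. Whether the matches bear on the calls was not tested. The remaining genes with the core were *Bag3*, *Cct2*, *Dnaja1*, *Hspb1*, *Hspb8* and *Stub1*. A match is a match of letters and says nothing of HSF1 at these sites.

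A list of 87 partner genes was read beside the chaperones: further J-domain proteins, HSP70 and HSP90 regulators, tubulin and actin folding factors, mitochondrial co-chaperones and proteases, and small heat shock proteins. In RPFs 3 of 81 tested were called higher and 2 lower, against 6.60% and 3.72% of all genes tested. The median of the partners was -0.06. *Dnajc19*, a J-domain protein of the mitochondrial import motor, had 6.52, 10.4, 12.6 and 12.6 CPM in KMNTC and 11.0, 14.6, 19.8 and 26.1 CPM in KM4A2cr (log2 fold change 0.73, adjusted p = 0.0333 by edgeR). *Lonp1*, the matrix protease, was at 81.7, 123, 129 and 197 against 102, 205, 204 and 231 CPM (0.49, adjusted p = 0.0804). Both were higher in 4 of 4 pairs with overlapping groups, as was the J-domain protein *Dnaja4*, at 1.99, 2.68, 1.78 and 3.36 against 3.14, 4.43, 5.75 and 5.92 CPM (0.95, adjusted p = 0.0669). *Tbcd*, a tubulin folding cofactor downstream of TRiC, fell in RPFs, from 34.3, 66.2, 50.0 and 22.0 to 24.0, 40.6, 28.5 and 19.1 CPM (log2 fold change -0.58, edgeR adjusted p = 0.0544), and in total RNA (-0.72, adjusted p = 0.0253). *Ruvbl2*, an ATPase of the R2TP complex that works with HSP90, fell in RPFs, from 73.1, 89.3, 77.2 and 26.6 to 53.5, 59.5, 60.0 and 19.7 CPM (-0.46, adjusted p = 0.0679). Both were lower in 4 of 4 pairs, with overlapping groups. In total RNA 2 of 81 partners were called higher, *Lonp1* (0.57) and *Dnajc27* (0.53), and 1 lower, *Tbcd*, against 4.35% and 1.78% of all genes. In translational efficiency *Dnajb14* was the 1 called of 79 (0.40, adjusted p = 0.0884 by edgeR), against 2.91% of all genes.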

How the data were processed

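KMNTC and KM4A2cr cells gave 4 replicates each of RPF and cytoplasmic total RNA libraries. A further allele that both lines carry is not reported here. For RPFs the authors deposited raw counts per transcript, made by trimming with Cutadapt, BBmap alignment to the most abundant transcript of each protein-coding gene (GENCODE), UMI-tools deduplication, keeping of 28 to 33 base reads, and summing over codons of the coding region other than the leading 20 and trailing 10. The total RNA files that the authors deposited hold, per isoform, RSEM 1.3.3 expected counts and TPM after Bowtie2 alignment. Cutadapt 1.18, UMI-tools 1.0.1 and Bowtie2 2.3.5.1 are named in the submitters' processing notes.

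Expected counts were summed per gene and rounded, and a transcript missing from an RPF library was taken as 0. Genes were filtered with filterByExpr (count minimum of 10), normalised by TMM within each kind of library and tested with edgeR 4.0.16 in R 4.3.3 (glmQLFit, glmQLFTest) in a model of line plus replicate number. Per the series' description, each replicate was plated and harvested on its own day, but it is not said that a number is 1 day in both lines. The number was used as a block, and deviations of same-numbered libraries correlated at 0.575 to 0.782 in RPFs and at 0.611 to 0.756 in total RNA. For translational efficiency, 1 model over 16 libraries tested whether the line effect differed between RPFs and total RNA, given lysate and replicate within kind. The edgeR p-values were adjusted by Benjamini-Hochberg over all genes tested, with calls at 0.1, and standard errors are the log2 fold change over the root of F. CPM are TMM-normalised, and log2 pair ratios used a pseudocount of 0.5 CPM. As each library is scaled to itself, a change of all mRNAs or all ribosomes leaves no trace. The p-values measure the spread between cultures of 1 control line and 1 pool of clones.

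Promoters came from RefSeq (GRCm38.p6). The members, families and partner list were chosen with earlier results of these data known, and the partner list is not independent of them. Values in every library are given for members called with all replicates, for *Hspa8*, *Hspa9*, the HSP90 pair, *Trap1*, *Hspd1*, *Hspe1*, *Hspb1*, *Bag3*, *Dnajb1* and *Hsf1*, and for partners called in RPFs; *Cct3*, *Cct4* and *Pfdn4* were added after their values were seen. The alternatives were no replicate block, DESeq2 1.42.0, 3 other scalings, 2 other filters, a threshold of 0.05, each replicate left out, *Hspa1a* and *Hspa1b* summed, and the RPF isoform only. Each test was tried first on simulated counts.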

Additional observations from a re-analysis of the deposited data

Results flagged for a closer look

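In 10 of 80 groups of 4 libraries examined, over 20 genes, 1 library lay far from the other 3 (gap to the nearest over the whole range above Dixon's 95% value), and in all 10 it was replicate 4. Chance alone flags about 5% of groups, and the same 16 libraries enter every gene's groups, so these groups are not independent. In KM4A2cr replicate 4, *Hspa1a* was at 165 CPM of RPFs and 127 CPM of total RNA, *Hspa1b* at 7.81 and 142 CPM, and *Hspb1* at 18.3 and 8.30 CPM, each the highest of its group. In the same replicate, *Ruvbl2* RPFs were lowest, at 19.7 CPM. *Eif4a2* was highest in replicate 4, at 389 CPM in RPFs and 524 CPM in total RNA of KMNTC and at 346 CPM in RPFs of KM4A2cr. *Cd68*, listed as a leukocyte marker, was at 220 and 154 TPM in the total RNA of replicate 4, against 32.5 to 62.9 TPM in the other libraries. The other leukocyte markers did not rise with it: *Ptprc* was at 0 and 0.16 TPM in replicate 4, and *Adgre1* and *Cd3e* were at 0. The part of *Cd68* in the values above was not tested.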

How the results depend on the processing

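Among values of single genes under the alternatives, 710 kept their side of the threshold and their direction where called, 56 lost a call, 15 gained one and 0 reversed. The 2 chaperones called in RPFs became 0 without the replicate block, 1 with upper-quartile factors, 5 with library size only and 0 at a threshold of 0.05. The 2 in total RNA became 0 without the replicate block, 5 with library size only, 1 with the *Hspa1a* and *Hspa1b* counts summed and 1 at a threshold of 0.05. Leaving out 1 replicate gave 0 to 9 calls in RPFs, 0 to 13 in total RNA and 0 to 2 in translational efficiency, where 0.310% to 33.4%, 0.577% to 29.8% and 0.101% to 6.68% of all genes were called, with the lowest counts in RPFs and total RNA without replicate 2 or 3 and the highest without replicate 4. It gave 14 to 23 chaperones that differed between replicate numbers in RPFs and 13 to 22 in total RNA, against 46.4% to 63.0% and 41.6% to 59.8% of all genes. DESeq2, median ratio factors and both other filters gave 2 or 3 calls in RPFs and in total RNA. The cause of these changes was not tested, apart from the summed pair, which is 1 gene in place of 2. At these depths *Hspa1b* RPFs (0.993 to 7.81 CPM) and *Hspb1* allow only wide intervals, such as -0.60 to 1.33 for *Hspb1*.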

Other observations

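The ratio of RPF CPM to total RNA CPM differed widely among chaperones. In KMNTC it was highest for *Pfdn2*, at 5.90 to 9.31 over the replicates, and *Bag3*, at 5.72 to 8.21, which lay above 99.5% and 99.3% of all genes, followed by *Hspa1a*, above 97.2%, and *Stip1*, at 2.70 to 3.06, above 94.4%. The lowest were *Hspa1b*, above 2.78% of genes, *Pfdn5*, above 14.9%, and *Hspe1*, above 15.1%. How fragments were assigned between *Hspa1a* and *Hspa1b* can change their ratios, and this was not tested.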
